A study of Mus musculus with 6 samples.

Results

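Blood vessels are lined by endothelial cells, which share a small set of genes for their junctions, their growth factor receptors and their contact with blood. The 10 genes Pecam1, Cdh5, Kdr, Flt1, Tek, Tie1, Eng, Emcn, Vwf and Cldn5 were followed here as endothelial identity genes. They were taken from the table of normalized values by gene symbol, and all 10 were found among its 23718 genes. RNA had been sequenced from laser-captured regions of the mesenchyme of the incisor, a tooth that grows throughout life, in mice 1 month old whose strain is C57BL/6 in the labels and a mixed background in the study's methods. The mesenchymal stem cell (MSC) group held 3 libraries from Gli1-CreER;tdT mice, and the transit amplifying cell (TAC) group, the dividing progeny of the stem cells, held 3 libraries from Axin2-CreER;tdT mice. In full these lines are Gli1-CreERT2;Rosa26-fs-tdTomato and Axin2-CreERT2;Rosa26-fs-tdTomato, and both had received tamoxifen 1 day before, so that Cre under the named driver had turned on the red fluorescent reporter. A laser frees a region of a tissue section with whatever cells lie in it, vessels included, so the libraries are regions rather than sorted cells. The methods give 3 mice per line for the capture and sequencing as 3 pairs of samples, without saying which mouse gave which library, and the p-values measure the spread between these libraries.

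In the endothelium, vascular endothelial growth factors (VEGFs) act on Kdr, the main signaling receptor, and on Flt1, which binds the same ligands tightly and can act as a decoy. Angiopoietins act on Tek, whose orphan relative Tie1 modulates it, and this system sets how quiet and tightly supported a vessel is. Cdh5 and Cldn5 form the adherens and tight junctions between endothelial cells, and Pecam1 is an adhesion protein of the same contacts. Smooth muscle cells and pericytes wrap the endothelial tube, and in the incisor the neurovascular bundle enters near the stem cell region.

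The endothelial genes were together higher in the MSC region. Their summed normalized value was 353, 366 and 381 in MSC1, MSC2 and MSC3 and 157, 150.4 and 126 in TAC1, TAC2 and TAC3. The groups did not overlap, with means of 366 ± 14.01 and 144 ± 16.3 (SD, n = 3 each), a ratio of 2.54. Of the 10 genes 9 had a lower fitted level in TAC, where 48.5% of the 15391 genes tested did, and Kdr was the exception. In 7 genes every MSC library lay above every TAC library, against 12.2% of all genes tested, and in 3 genes (Kdr, Tek and Emcn) the groups overlapped. In limma, 0 of the 10 passed an adjusted p-value of 0.05, where 0.422% of all genes did (0.383% higher in MSC and 0.039% higher in TAC). Before adjustment 6 were under 0.05 (Vwf, Cldn5, Pecam1, Eng, Cdh5 and Flt1), all higher in MSC, against 6.43% of all genes in that direction and 5.42% in the other. With the replicate number as a block 2 of the 10 passed the adjusted threshold, Vwf and Cldn5, where 1.49% of all genes did. The median log2 difference (TAC minus MSC, of the value plus 1) was -1.02 over the 10 genes and 0.026 over all genes tested. In these bulk samples, fewer endothelial cells and less RNA per cell cannot be told apart.

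The libraries form 2 sets that cut across the groups. In replicates 1 and 2, mitochondrial ribosomal RNA took 8.28% to 9.07% of estimated reads, and in replicate 3 it took 0.236% in MSC and 0.112% in TAC. Estimated reads were 20203159 to 25567244 in replicates 1 and 2, 59793645 in MSC3 and 108156380 in TAC3. Despite that depth 42.6% of all genes had no read in MSC3 and 27.8% had none in TAC3, against 6.38% to 7.88% in the other libraries, so a value of 0 reads there was common to many genes. Each endothelial gene had between 90 and 12358 estimated reads in each library, so none was near the detection floor. The drivers that named the groups did not differ past the threshold, with log2 differences (TAC minus MSC) of -0.54 for Gli1 and 0.60 for Axin2 (limma adjusted p 0.718 and 0.758). The differences of the 10 genes are given below over all libraries, for replicates 1 and 2, and for replicate 3, and replicate 3 has 1 library per group, so no test can be made within it.

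**Figure D1:**
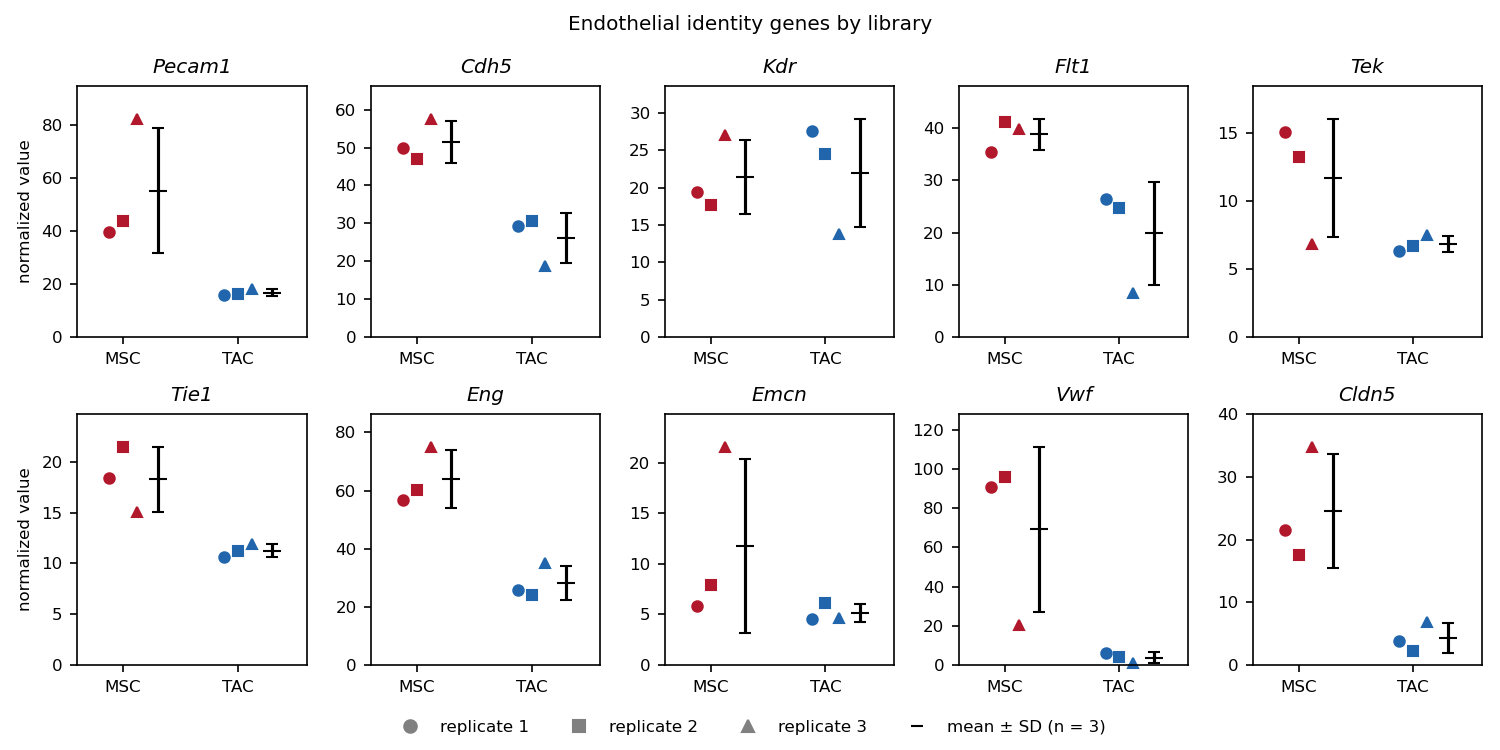
Normalized value (vertical axis, read number scaled per library) of each of the 10 genes in the MSC (red) and TAC (blue) libraries, with replicates 1, 2 and 3 as circles, squares and triangles and the mean ± SD (n = 3) in black. Pecam1, Cdh5, Flt1, Tie1, Eng, Vwf and Cldn5 show no overlap between the groups, while Kdr, Tek and Emcn overlap.

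The sequence just upstream of a gene is where transcription factors that many endothelial genes share, such as the ETS family, can bind. RefSeq promoters on build GRCm38.p6 (mm10) were found for 7 of the 10 genes, namely Cldn5, Emcn, Eng, Flt1, Kdr, Tek and Tie1, and not for Pecam1, Cdh5 and Vwf. The 250 bases upstream of the start are printed for Cldn5, the gene with the largest difference among the 7, for Kdr, whose group means were nearly equal, and for Flt1, the other VEGF receptor, which held as many ETS core matches as Kdr. They lie at chr16:18776597-18776846 (plus strand) for Cldn5, chr5:75978456-75978705 (minus strand) for Kdr and chr5:147726012-147726261 (minus strand) for Flt1. In the GENCODE M21 annotation the windows of Cldn5 and Flt1 lie wholly outside the gene and 3 bases of the Kdr window lie inside it. Each runs 5′ to 3′ toward the gene, and capitals mark the ETS core GGAA on either strand (read as TTCC on the other strand).
Cldn5: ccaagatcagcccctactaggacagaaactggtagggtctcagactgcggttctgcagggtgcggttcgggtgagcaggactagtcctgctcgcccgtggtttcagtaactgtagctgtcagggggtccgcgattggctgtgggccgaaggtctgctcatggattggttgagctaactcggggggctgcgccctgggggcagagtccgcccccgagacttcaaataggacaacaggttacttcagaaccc
Kdr: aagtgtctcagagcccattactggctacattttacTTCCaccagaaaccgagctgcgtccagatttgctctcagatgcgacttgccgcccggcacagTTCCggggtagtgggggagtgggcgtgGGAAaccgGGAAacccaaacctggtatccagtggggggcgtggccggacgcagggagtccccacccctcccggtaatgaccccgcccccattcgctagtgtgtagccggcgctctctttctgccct
Flt1: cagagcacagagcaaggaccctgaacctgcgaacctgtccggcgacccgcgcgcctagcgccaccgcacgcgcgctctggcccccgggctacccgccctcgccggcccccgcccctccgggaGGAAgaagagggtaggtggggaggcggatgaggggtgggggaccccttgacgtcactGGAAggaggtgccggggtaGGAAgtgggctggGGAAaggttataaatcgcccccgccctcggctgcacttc
GGAA occurred at least once in 6 of the 7 windows and in 93.4% of 32851 promoter windows of the same length. It occurred 4 or more times in 4 of the 7 (Emcn, Flt1, Kdr and Tie1) and in 33.4% of all windows. The 7 matches of Tie1 were reached or passed by 3.82% of windows, but 212 of the 250 bases of its window lie inside the gene as GENCODE annotates it, and the absence of a match in Cldn5 was shared by 6.55%. The longer ETS form CAGGAAG, which contains GGAA, was found in 1 of the 7 (Emcn) and in 10.8% of all windows. The SOX core ACAAT was found in Emcn and Tek and in 27.7% of all windows, and GATAA in 0 of the 7 and in 22.6% of all windows. A match is a run of letters and not a measured binding site.

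Among the junction genes, Cldn5 and Pecam1 had larger ratios between the group means than Cdh5. Pecam1 (chromosome 11, 106654217 to 106750628, minus strand), also present on platelets and leukocytes, was 39.6, 43.7 and 82.3 in MSC1, MSC2 and MSC3 and 15.7, 16.2 and 18.2 in TAC1, TAC2 and TAC3. The TAC libraries lay close together and below all MSC libraries, and MSC3 stood highest. The mean of 55.2 ± 23.6 in MSC was 3.30 times the 16.7 ± 1.31 in TAC (SD, n = 3 each). Its log2 difference was -1.59 (SE 0.35, limma adjusted p 0.139), with -1.33 for the pairs numbered 1 and 2 but -2.12 for pair 3. Without MSC3 it was -1.27 (adjusted p 0.0472, in a fit where 292 of all genes passed), and without any other single library its adjusted p was 0.196 to 0.545.

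Cdh5 (chromosome 8, 104101625 to 104144511, plus strand), which encodes the cadherin of endothelial adherens junctions, was 49.9, 46.9 and 57.6 in the MSC libraries and 29.4, 30.6 and 18.7 in the TAC libraries. All MSC values lay above all TAC values, and TAC3 was the lowest. The means of 51.5 ± 5.51 and 26.2 ± 6.59 (SD, n = 3 each) stood in a ratio of 1.96, and the log2 difference was -0.97 (SE 0.30, limma adjusted p 0.259), with -0.67 for the pairs numbered 1 and 2 but -1.57 for pair 3. The annotated antisense gene Gm29682 overlaps an exon of Cdh5, and since the use of strand in counting was not stated, reads of both could be in this value.

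Cldn5 (chromosome 16, 18776847 to 18778262, plus strand), the claudin of endothelial tight junctions, was 21.5, 17.5 and 34.8 in the MSC libraries against 3.81, 2.18 and 6.89 in the TAC libraries. The lowest MSC library was well above the highest TAC library, and replicate 3 was the highest of its group in both. Within the replicate numbers 1, 2 and 3 the MSC value was 5.63, 8.01 and 5.06 times the TAC value. The log2 difference was -2.31 (SE 0.50, limma adjusted p 0.132), and with the replicate number as a block the adjusted p was 0.0491, where 0.884% of all genes passed in this direction. Its log2 difference was -2.38 for the pairs numbered 1 and 2 and -2.18 for pair 3.

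Vwf showed the widest gap between the groups. Vwf (chromosome 6, 125546774 to 125686679, plus strand) encodes von Willebrand factor, the clotting protein that endothelial cells and megakaryocytes store and release. Its value was 91.1, 96.2 and 20.6 in MSC1, MSC2 and MSC3 and 6.31, 4.15 and 0.887 in TAC1, TAC2 and TAC3. Replicate 3 was the lowest library in both groups, and the MSC value was 14.4, 23.2 and 23.2 times the TAC value with the same number. The means were 69.3 ± 42.3 and 3.78 ± 2.73 (SD, n = 3 each), a ratio of 18.3. The log2 difference of -3.80 (SE 0.75) had a limma adjusted p of 0.108. With the replicate block the SE was 0.28 and the adjusted p was 0.0323, and without MSC3 the log2 difference was -4.51 (adjusted p 0.0393), while without any other single library the adjusted p was 0.199 to 0.397. The difference was -3.95 for the pairs numbered 1 and 2 and -3.51 for pair 3. On this scale 1 is added to each value, more than the 0.887 of TAC3, so the size depends on the pseudocount. Over all libraries the difference was -4.02 with a pseudocount of 0.5 and -2.89 with 5. In TAC3 it rested on 233 estimated reads, and in MSC3 on 3087.

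The VEGF receptors had unlike patterns. Kdr (chromosome 5, 75932827 to 75978458, minus strand) was 19.5, 17.7 and 27.1 in the MSC libraries and 27.7, 24.5 and 13.8 in the TAC libraries. TAC was the higher group in replicates 1 and 2, by 1.42 and 1.38 times, and MSC was higher in replicate 3, by 1.97 times. The means, 21.4 ± 4.99 in MSC and 21.96 ± 7.27 in TAC (SD, n = 3 each), were nearly equal. Its log2 difference of 0.0015 (95% interval -0.87 to 0.88, limma adjusted p 0.999) does not show equal levels, since the interval is wide. Split by library set, the log2 difference was 0.47 for the pairs numbered 1 and 2 but -0.93 for pair 3.

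Flt1 (chromosome 5, 147561604 to 147726011, minus strand) was 35.4, 41.1 and 39.8 in the MSC libraries and 26.4, 24.6 and 8.50 in the TAC libraries. The MSC libraries lay close together, and TAC3 was far below the other TAC libraries. With means of 38.7 ± 2.996 and 19.8 ± 9.86 (SD, n = 3 each), its ratio was 1.95 and its log2 difference -1.08 (SE 0.45, limma adjusted p 0.410). That difference was -0.56 for the pairs numbered 1 and 2 but -2.10 for pair 3. Without TAC3 it was -0.58 over the remaining libraries.

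The TIE receptors had nearly the same difference as each other over all libraries. Tek (chromosome 4, 94739289 to 94874976, plus strand), the angiopoietin receptor, was 15.1, 13.2 and 6.84 in the MSC libraries and 6.31, 6.69 and 7.46 in the TAC libraries. MSC3 fell among the TAC values. Its log2 difference was -0.64 (SE 0.44, limma adjusted p 0.639), with -1.01 for the pairs numbered 1 and 2 but 0.11 for pair 3. Tie1 (chromosome 4, 118471191 to 118490061, minus strand) was 18.4, 21.5 and 15.04 in the MSC libraries and 10.7, 11.2 and 11.9 in the TAC libraries. Every TAC value was lower than every MSC value, and the log2 difference was -0.64 (SE 0.33, limma adjusted p 0.504), with -0.81 for the pairs numbered 1 and 2 but -0.31 for pair 3.

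Eng had the smallest change of its difference between the library sets among the 10 genes. Eng (chromosome 2, 32646595 to 32682669, plus strand) encodes endoglin, a coreceptor for TGF-beta and BMP ligands that is abundant on endothelium and is also used as a surface marker of mesenchymal stem cells. It was 56.6, 60.2 and 75.2 in the MSC libraries and 25.8, 24.1 and 34.9 in the TAC libraries, so the MSC value was 2.19, 2.49 and 2.15 times the TAC value with the same number. Its log2 difference was -1.16 (SE 0.28, limma adjusted p 0.167), with -1.19 for the pairs numbered 1 and 2 but -1.08 for pair 3. Fpgs, a gene on the opposite strand, overlaps an exon of Eng. Fpgs itself was 9.42 to 23.9 in MSC and 8.85 to 25.4 in TAC, with a log2 difference of -0.0084.

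Emcn (chromosome 3, 137341067 to 137432185, plus strand) encodes endomucin, a sialomucin of capillary and venous endothelium, and its difference changed most between the library sets among the 10 genes. It was 5.78, 7.94 and 21.6 in the MSC libraries and 4.58, 6.11 and 4.67 in the TAC libraries. MSC1 lay below TAC2, and MSC3 was far above all other libraries. The log2 difference was -0.87 (SE 0.56, limma adjusted p 0.610), with -0.31 for the pairs numbered 1 and 2 but -1.99 for pair 3, and -0.36 without MSC3.

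**Figure D2:**
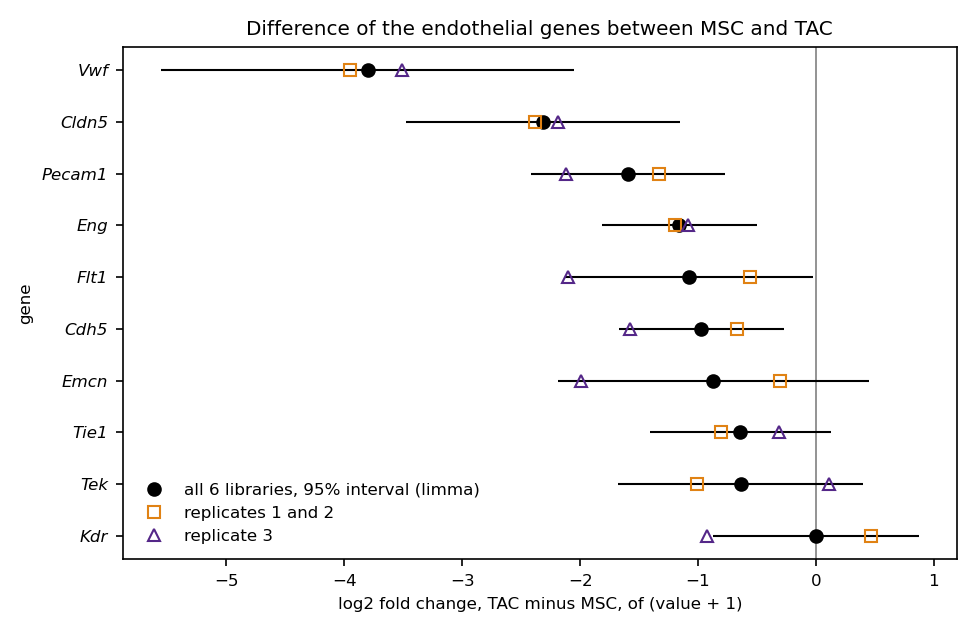
Log2 fold change (TAC minus MSC, horizontal axis) of the 10 genes over all 6 libraries (black, with the 95% interval from limma), in replicates 1 and 2 (open squares) and in replicate 3 (open triangles). On the log2 scale of the value plus 1, Eng, Cldn5 and Vwf differ between the library sets by 0.11, 0.20 and 0.43. Kdr and Tek lie on opposite sides of 0.

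The library sets gave different sizes for many of the genes. The log2 difference in replicate 3 differed from that in replicates 1 and 2 with an adjusted p-value under 0.05 for 6 of the 10 genes, where 57.2% of all genes tested passed, so the share was near the background. For 8 of the 10 genes the TAC value was below the MSC value in each of the 3 replicate numbers, against 26.4% of all genes. The 2 that changed sides, Kdr and Tek, compare with 38.8% of all genes whose direction differed between the library sets. Within replicates 1 and 2 alone, 9 of the 10 passed the adjusted threshold, 8 higher in MSC and Kdr higher in TAC, where 44.2% of all genes did, and that fit takes its error from libraries that lie very close together.

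The shares of Vwf, Kdr and Tie1 in the summed endothelial value did not overlap between the groups. Of the summed value of the 10 genes, Vwf held 25.8%, 26.3% and 5.40% in MSC1, MSC2 and MSC3 and 4.02%, 2.76% and 0.705% in TAC1, TAC2 and TAC3. Kdr held 5.52%, 4.83% and 7.11% in MSC and 17.6%, 16.3% and 10.9% in TAC, with its own value higher in TAC in replicates 1 and 2 and lower in replicate 3. Tie1 held 5.22%, 5.87% and 3.95% in MSC and 6.81%, 7.48% and 9.46% in TAC, with its own value lower in each TAC library than in any MSC library. Eng and Cdh5 each held between 12.8% and 27.7% in every library. A share of this sum also reflects gene length.

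When each gene was set against the mean log2 value of the other 9 in the same library, Vwf was lower in TAC by 2.77 on the log2 scale. Kdr was higher in TAC by 1.45, at -0.49 ± 0.28 in MSC and 0.96 ± 0.37 in TAC (SD, n = 3 each), and Tie1 was higher by 0.74. These 3 genes had groups that did not overlap and an exact two-sided permutation p of 0.10, the smallest that 3 libraries against 3 allow. Adjusted over the 10 genes, each p was 0.333. Cldn5, at -1.12, Tek, at 0.74, and Cdh5, at 0.37, had exact permutation p-values of 0.20. Since each gene is set against the other 9, a lower Vwf or Cldn5 raises the rest on this scale by construction. The value of Tie1 itself was lower in TAC, with MSC 1.73, 1.91 and 1.26 times TAC for the numbers 1, 2 and 3.

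**Figure D3:**
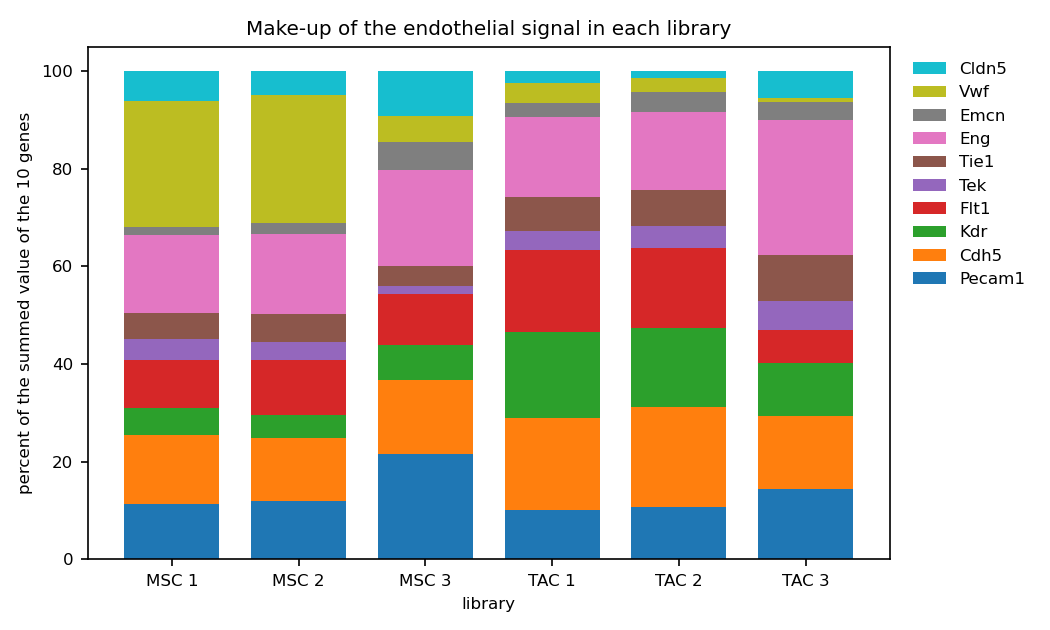
Share of each gene (percent, stacked bars) in the summed normalized value of the 10 endothelial genes, for each of the 3 MSC and 3 TAC libraries. Vwf takes 25.8% and 26.3% in MSC 1 and MSC 2 and no more than 5.40% in any other library, and Kdr takes more in each TAC library than in any MSC library.

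Levels of different genes were compared per kilobase of exon, using all exons of the GENCODE M21 annotation. In MSC, Cldn5 (17.4 ± 6.43 per kilobase), Eng (15.8 ± 2.43) and Cdh5 (12.2 ± 1.31) were highest, followed by Pecam1 (8.86 ± 3.78) and Vwf (4.31 ± 2.63). Tie1, Flt1, Tek, Kdr and Emcn were between 3.72 and 2.18 per kilobase (SD, n = 3 for each). Among neighbours in that order, the ranges were separate only between Eng and Cdh5, between Pecam1 and Vwf and between Tie1 and Flt1, and the others overlapped. In TAC the order began with Eng (6.99 ± 1.43 per kilobase), Cdh5 (6.25 ± 1.57) and Cldn5 (3.03 ± 1.69), and Vwf was the last of the 10 at 0.235 ± 0.170 (SD, n = 3 for each). Neighbouring ranges in TAC were separate between Tie1 and Flt1, Tek and Emcn, and Emcn and Vwf. The order depends on the length used. Dividing by the longest transcript in place of all exons put Eng above Cldn5, Pecam1 above Cdh5, Flt1 above Tie1, and Kdr and Emcn above Tek in MSC, and in TAC it put Pecam1 and Kdr above Cldn5 and Flt1 above Tie1.

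Other genes of the endothelial program were described from a list of 30, of which 29 reached the mean required for testing. In limma 1 passed the adjusted threshold and was lower in TAC, 0 were higher, and 10 had a p-value under 0.05 before adjustment, all lower in TAC, where 0.383% and 6.43% of all genes tested did so in that direction. These shares also apply to the counts lower in TAC of the lists that follow. For counts higher in TAC the shares of all genes were 0.039% after and 5.42% before adjustment. The median log2 difference of the 29 was -1.01 beside the -1.02 of the 10 identity genes, with -0.87 for the pairs numbered 1 and 2 but -1.83 for pair 3. Of the 29, 24 had a lower and 5 a higher fitted level in TAC. Their median was -0.83 without MSC3 and -1.23 without TAC1. With a pseudocount of 5 it was -0.68, beside -0.89 for the 10 identity genes. The gene that passed was Ptprb, a phosphatase that restrains Tek signaling. It was 114, 128 and 82.01 in MSC and 20.3, 20.6 and 9.84 in TAC, differing by -2.65 on the log2 scale (SE 0.37, limma adjusted p 0.0413). Its log2 difference lay between -2.83 and -2.32 when any single library was left out. Without MSC1, MSC2, TAC1 or TAC2, 0 of all 15391 genes passed in limma (1360, 1367, 1036 and 1028 were under 0.05 before adjustment), so every call was lost in these fits, and that of Ptprb (adjusted p 0.186 to 0.241) was also lost without TAC3 (0.0641). It was lost as well with a pseudocount of 0.5 (0.0506), with no variance trend (0.0949) and with replicates 1 and 2 averaged (0.302), and held in 9 of 17 alternatives. The next largest were Sox17, a transcription factor of arterial endothelium, at -2.62 (adjusted p 0.150 in limma, and 0.0459 with the replicate block), She at -2.07 (adjusted p 0.170) and the sphingosine phosphate receptor S1pr1 at -2.04 (adjusted p 0.0908). The ETS factors Erg and Fli1, chosen after their values were seen, had log2 differences of -1.57 and 0.16, with adjusted p-values of 0.304 and 0.895.

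Ligands of the identity receptors were examined next, to set the receptors beside what acts on them. Of 12 ligands listed, 10 were in the table and tested. Adjusted over all genes 1 passed, lower in TAC, and with a p-value under 0.05 before adjustment there were 5 lower and 1 higher in TAC. Of all genes 6.43% and 5.42% were so before adjustment. All 3 angiopoietins of the list were among the lower ones. Angpt1, the agonist of Tek made by perivascular and mesenchymal cells, was 21.5, 22.9 and 21.6 in MSC and 2.41, 1.99 and 1.67 in TAC, differing by -2.94 on the log2 scale (SE 0.40, limma adjusted p 0.0408). Angpt4 was 89.8, 87.6 and 52.7 in MSC and 5.74, 6.31 and 0.171 in TAC, differing by -4.29 on the log2 scale (SE 0.73, adjusted p 0.0764, and 0.0442 with the replicate block), and its difference was -3.68 for the pairs numbered 1 and 2 but -5.52 for pair 3. Angpt2, a context-dependent antagonist of Tek, had -2.12 (SE 0.57, adjusted p 0.191), with -1.45 for the pairs numbered 1 and 2 but -3.47 for pair 3.

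Of the VEGF ligands Vegfd had a higher fitted level in TAC, and Vegfa, Vegfb, Vegfc and Pgf had lower ones. Vegfd, which acts on Flt4, was 1.44, 2.26 and 0.333 in MSC and 4.75, 4.17 and 10.9 in TAC, differing by 1.69 on the log2 scale (SE 0.61, limma adjusted p 0.342), with 0.95 for the pairs numbered 1 and 2 but 3.16 for pair 3. Pgf, a ligand of Flt1 chosen here after its values were seen, was 3.84, 2.69 and 5.10 in MSC and 0.372, 0.791 and 1.07 in TAC, with a log2 difference of -1.47 (SE 0.51, adjusted p 0.316). Vegfa, the main ligand of Kdr and chosen here after its values were seen, was 116, 99.01 and 56.5 in MSC and 40.6, 39.1 and 72.5 in TAC. Its log2 difference was -0.82 (adjusted p 0.470), with -1.41 for the pairs numbered 1 and 2 but 0.36 for pair 3. The log2 difference of Angpt1 lay between -3.03 and -2.85 when any single library was left out, and its adjusted p was 0.217 to 0.294 without a library numbered 1 or 2, where no gene passed, and 0.0659 without TAC3. The call was also lost with a pseudocount of 0.5 (0.0506), with no filter (0.0682), with a filter at a mean of 10 (0.0680) and with replicates 1 and 2 averaged (0.906), and held in 8 of 17 alternatives.

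Among 10 partner receptors and associated proteins of the same pathways, 1 passed in limma and was lower in TAC, again Ptprb, and their median log2 difference was -0.30. That median rests on single libraries, since it was -0.71 without MSC3, -0.52 without TAC1, -0.17 without MSC1, -0.12 without MSC2 and -0.11 without TAC3. Flt4, the VEGF receptor of lymphatic and sprouting endothelium, was 21.9 to 31.8 in MSC and 6.47 to 9.97 in TAC, differing by -1.53 on the log2 scale (SE 0.35, limma adjusted p 0.148). Nrp1, a VEGF coreceptor also found outside vessels, had -1.02 (adjusted p 0.674). Ctnnb1, the beta-catenin that links Cdh5 to the cytoskeleton and carries WNT signals in most cells, was the one with the largest difference toward TAC, at 0.93 (SE 0.34, adjusted p 0.346). Before adjustment 2 were lower and 1 was higher in TAC at a p-value under 0.05, against 6.43% and 5.42% of all genes.

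Genes of vessel subtypes came next, and of 24 listed 22 were in the table and 19 were tested. Their median log2 difference was -1.09, with -0.90 for the pairs numbered 1 and 2 but -0.43 for pair 3, and it was -0.69 without MSC3, -0.60 with a pseudocount of 5 and -0.62 with no filter. In limma 1 passed, lower in TAC, where 0.383% of all genes did, and before adjustment 7 lower and 1 higher in TAC were under 0.05, against 6.43% and 5.42% of all genes. Sema3g, a semaphorin of arterial endothelium, was 33.2, 30.2 and 75.5 in MSC and 2.10, 1.32 and 1.72 in TAC, differing by -4.01 on the log2 scale (SE 0.48, limma adjusted p 0.0350). Its log2 difference lay between -4.25 and -3.60 when any single library was left out, with an adjusted p of 0.152 to 0.222 without a library numbered 1 or 2, where no gene passed, and of 0.0826 without TAC3. It was also lost with replicates 1 and 2 averaged (0.196) and held in 11 of 17 alternatives. Bmx, a kinase of arterial endothelium, had -3.50 (adjusted p 0.139) and rested on 11, 2 and 0 estimated reads in the TAC libraries, so that its size depends on the pseudocount. Vcam1, an adhesion protein of activated endothelium that other cells also make, had -2.97 (adjusted p 0.0913), and Gja4, an arterial connexin, had -2.74 (adjusted p 0.108). Other arterial genes of the list, named after their values were seen, had smaller differences, with -1.85 for Gja5, -1.09 for Efnb2 and -0.82 for Dll4, and Hey1 lay the other way at 0.53 (adjusted p 0.288 to 0.604). The lymphatic genes Lyve1 and Pdpn and the apelin receptor Aplnr had no read in MSC3, a library in which 42.6% of all genes had none. Aplnr, named after its values were seen, was the gene under 0.05 toward TAC before adjustment. It was 4.40, 5.68 and 0.00666 in MSC and 14.5, 11.99 and 25.9 in TAC, without overlap. Its log2 difference was 2.41 (SE 0.79, limma adjusted p 0.293). For the pairs numbered 1 and 2 it was 1.24, and for pair 3 it was 4.74. The venous genes Nr2f2 and Ephb4, also named after their values were seen, had -1.14 and -0.022 (adjusted p 0.422 and 0.993). Lyve1 and Pdpn had overlapping groups and log2 differences of 0.20 and 1.05 (adjusted p 0.956 and 0.690). Prox1, the transcription factor of lymphatic endothelium and named after its values were seen, lay the other way. It was 0.895, 1.80 and 3.71 in MSC and 0.460, 0.0480 and 0.00379 in TAC, on 33, 61 and 557 estimated reads against 20, 1 and 0, with a log2 difference of -1.34 (p 0.0425 before adjustment in limma, adjusted p 0.398). Without MSC3, 3 of the list passed, all lower in TAC, where 1.31% of all genes did.

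**Figure D4:**
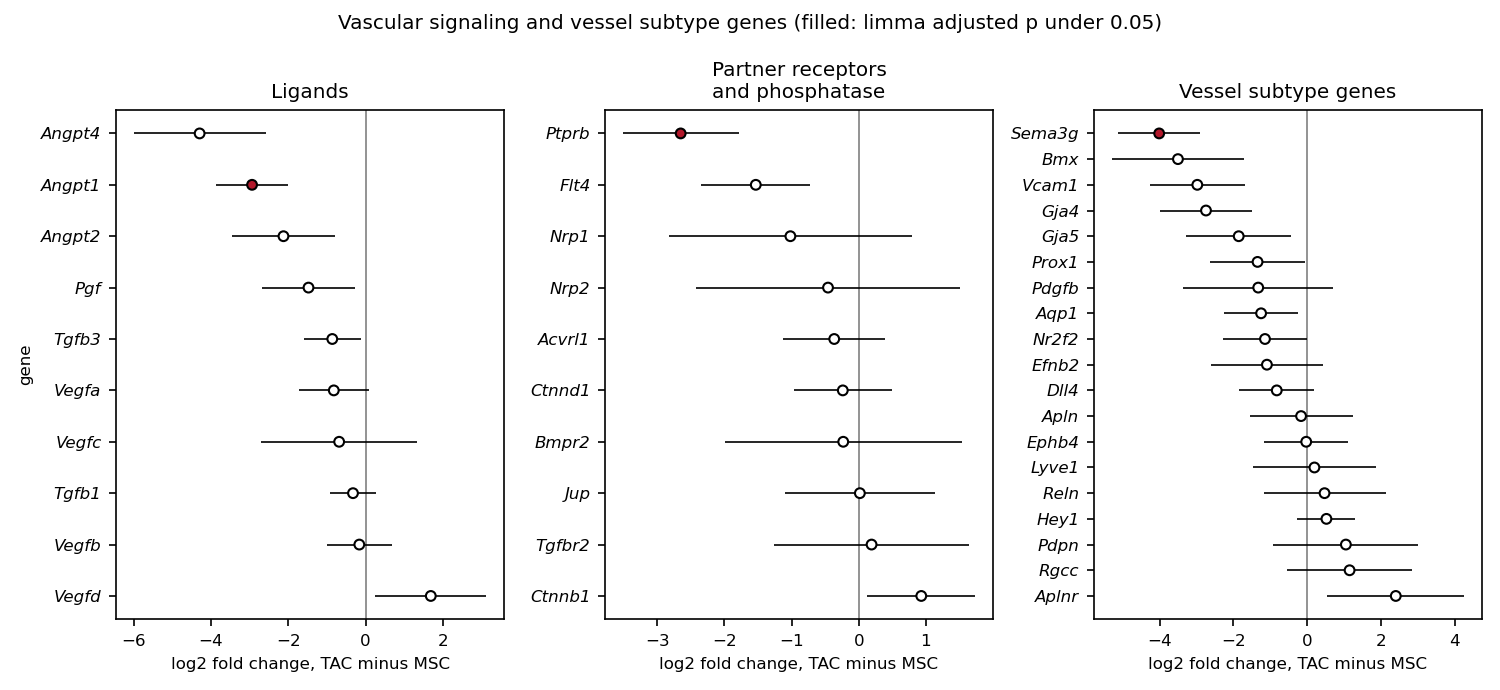
Log2 fold change (TAC minus MSC, horizontal axis) with 95% interval for the tested ligands, partner receptors and vessel subtype genes, filled where the limma adjusted p-value was under 0.05. Angpt1, Ptprb and Sema3g are filled, all on the MSC side.

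Genes of the cells that surround vessels were also higher in MSC. The 12 smooth muscle and pericyte genes had a summed value of 1079 to 1815 in MSC and 213 to 252 in TAC, a ratio of the means of 5.57, larger than the 2.54 of the endothelial genes. In limma 5 of 11 tested passed, all lower in TAC, where 0.383% of all genes did, namely Myh11 (-5.56), Acta2 (-5.36), Tagln (-3.60), Rgs5 (-3.29) and Notch3 (-2.18), with adjusted p-values of 0.0337 to 0.0491. Acta2 and Myh11 rested on 2 and 10 estimated reads in TAC3, and Acta2 differed by -4.03 for the pairs numbered 1 and 2 but -8.04 for pair 3. With a pseudocount of 0.5 Acta2, Myh11 and Rgs5 were lost (adjusted p 0.0808, 0.0762 and 0.0593) and 2 of the 11 passed. With no variance trend 1 passed, Tagln (0.0425). Rgs5 was also lost with no filter (0.0517), with a filter at a mean of 10 (0.0515), with median-ratio scaling (0.0608) and with quantile normalization (0.0569). With replicates 1 and 2 averaged Tagln (0.275), Rgs5 (0.135) and Notch3 (0.563) were lost. Over the 17 alternatives the calls held in 11 for Myh11 and for Tagln, 10 for Notch3, 8 for Acta2 and 5 for Rgs5. When any single library was left out, the log2 differences lay between -2.32 and -2.01 for Notch3, -3.58 and -2.72 for Rgs5, -3.78 and -3.28 for Tagln, -5.84 and -4.61 for Acta2, and -6.10 and -4.68 for Myh11. The adjusted p-values of the 5 were 0.107 to 0.241 without a library numbered 1 or 2, where no gene passed, while Acta2 had 0.0536 without MSC3 and only Myh11 passed without TAC3 (0.0492). With the replicate block 6 passed, where 0.884% of all genes did in that direction, as Acta2 was lost (adjusted p 0.0701) and Cspg4 (0.0442) and Mcam (0.0456) were gained. Des had no read in either replicate 3 library, and Cnn1 none in TAC3.

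The summed endothelial value was 0.327, 0.335 and 0.210 times the mural value in the MSC libraries and 0.622, 0.602 and 0.590 times in the TAC libraries. These groups did not overlap (exact two-sided permutation p = 0.10, the smallest possible, and 0.30 adjusted over 3 such ratios). Against the 30 other endothelial genes the ratio was 0.638 ± 0.119 in MSC and 0.619 ± 0.0995 in TAC (SD, n = 3 each, exact permutation p = 0.80). The ranges of this second ratio overlapped.

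The summed value of the leukocyte genes was higher in the libraries of pair 3, though not that of every gene. The 12 leukocyte and macrophage genes summed to 116, 110.5 and 315 in MSC1, MSC2 and MSC3 and to 57.7, 62.8 and 173 in TAC1, TAC2 and TAC3, where the sum in TAC3 was above the endothelial sum of 126. Ptprc, the pan-leukocyte phosphatase, was 10.4, 13.3 and 13.4 in MSC and 4.23, 5.49 and 5.09 in TAC, while Fcer1g was 1.07, 2.35 and 39.8 in MSC and 1.42, 1.97 and 11.5 in TAC (both chosen after their values were seen). Of the 12 genes 0 passed the adjusted threshold and 2 were under 0.05 before adjustment, and Adgre1 and Tyrobp had no read in MSC3. Against this list the endothelial sum was 3.04, 3.31 and 1.21 times in MSC1, MSC2 and MSC3 and 2.72, 2.40 and 0.728 times in TAC1, TAC2 and TAC3. It was thus higher in MSC within each replicate number, while the group ranges overlapped. The means were 2.52 ± 1.14 and 1.95 ± 1.07 (SD, n = 3 each, exact permutation p = 0.50, from a test that ignores the replicate numbers). Of 10 platelet genes 7 were in the table, and they summed to 14.9 to 32.6 in MSC and 13.02 to 63.3 in TAC, of which Gp1bb made up 60.1 in TAC3. Ppbp, Gp1ba and Gp5 had no read in the replicate 3 library of either group, and Itgb3 none in TAC3. Red cell genes summed to 38.2 to 82.9 in MSC and 61.5 to 79.3 in TAC, with 0 of 6 tested under 0.05 before adjustment. Of 8 epithelial genes 6 were tested and all had a higher fitted level in TAC, with 0 past the adjusted threshold and 1 before adjustment. In that direction 5.42% of all genes were under 0.05 before adjustment. The 8 Schwann cell genes had 0 past the threshold, 1 before adjustment and a median of -0.87 (-0.55 without MSC3), and the 7 odontoblast genes tested had 0 and 0 and a median of 0.86. That odontoblast median was 0.16 for the pairs numbered 1 and 2 but 2.37 for pair 3, and 0.060 without MSC3, in which Dspp, the dentin matrix gene, was 476 against 4763 to 4909 in the other MSC libraries. All 8 proliferation genes were higher in TAC before adjustment, with a median of 2.04, and 1 (Cdk1, at 2.62) passed the adjusted threshold, against 5.42% and 0.039% of all genes in that direction. When any single library was left out Cdk1 lay between 2.56 and 2.69, with an adjusted p of 0.236 to 0.330 without a library numbered 1 or 2, where no gene passed, and of 0.0958 without TAC3. It was also lost with no variance trend (0.0523) and with replicates 1 and 2 averaged (0.824), and with the replicate block a second gene of the list, Mki67, passed (0.0442), where 0.604% of all genes did in that direction. The part of leukocytes and platelets in the values of Pecam1 and Vwf was not tested.

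**Figure D5:**
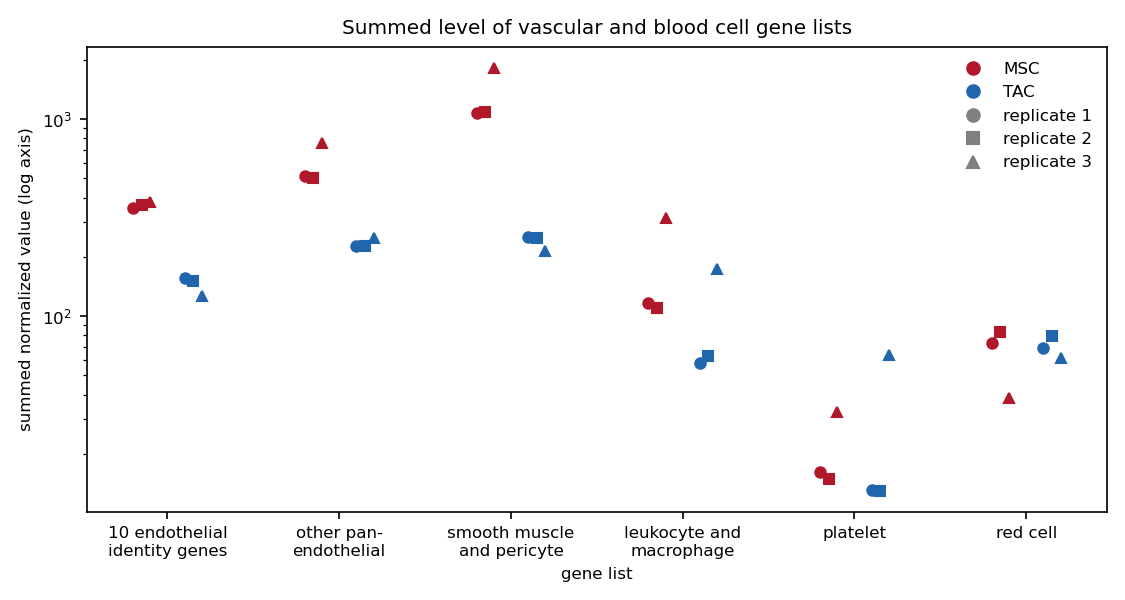
Summed normalized value (vertical log axis) of the genes of 6 lists in each MSC (red) and TAC (blue) library, with replicates 1, 2 and 3 as circles, squares and triangles. The endothelial, other pan-endothelial and mural sums are separate between the groups, the leukocyte sums overlap, with replicate 3 the highest in both groups, and the platelet and red cell sums overlap.

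The genes whose pattern over the 6 libraries was closest to the median pattern of the 10 were not on any of the vascular lists. Among 7735 protein-coding genes with a mean of at least 10, the smallest root mean square differences of the centred log2 values were those of Obsl1 (0.075), Col8a2 (0.083), Dmpk (0.084), Crtc1 (0.086) and Col6a1 (0.088). Obsl1, for example, was 98.7, 105 and 105 in MSC and 53.9, 52.2 and 47.3 in TAC. Of the 10 genes themselves Cdh5 (0.190), Eng (0.249) and Tie1 (0.262) lay nearest to their own median pattern, and Cldn5 (0.841) and Vwf (1.69) farthest.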

How the data were processed

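Normalized values of 6 libraries (3 MSC, 3 TAC) were used. The reads had been trimmed and aligned to mm10 with TopHat2 2.0.8, with CASAVA 1.8.2 and Partek also named in the submitters' processing notes. The values the authors deposited are a signal, read numbers plus 1 divided by a size factor per library, and gene length is not divided out, although the methods name RPKM. Whether counting used strand was not given in the sources used here. Estimated reads were recovered as the value over the lowest value of its library, minus 1. Between 63.2% and 72.4% of the values between 0 and 50 reads came out whole within 0.02 of a read, so no count model was used. Replicates 1 and 2 of a group differed by more than sampling noise and were kept apart. The chi-square per gene was 8.32 in TAC and 10.3 in MSC, with medians of 3.51 and 4.61. This does not tell whether they came from different mice.

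Values were taken as log2(value + 1), which understates the change of low genes. Genes averaging 1 or more over the 6 libraries (15391) entered a fit in limma 3.58.1 (R 4.3.3), its moderated variances following a trend in mean level, as the contrast TAC minus MSC, two-sided, with Benjamini-Hochberg adjustment over all genes and a threshold of 0.05. The planned test assumed normalized values and suits this unit. A second fit tested the difference between replicate 3 and replicates 1 and 2. The same-numbered libraries deviated together from their group means (correlations across genes of 0.477, 0.465 and 0.517), as did MSC replicate 1 with TAC replicate 2 (0.462) and MSC replicate 2 with TAC replicate 1 (0.480). The correlations thus do not tell numbers 1 and 2 apart, and the pairing rests on the study's statement that pairs of samples were sequenced, on the numbers in the labels and on the contrast of replicate 3 with the others. Blocked values stand beside results whose call they change.

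The genes and lists were chosen with earlier results of these data known. Named were the 10 genes, the 4 largest differences of each described list and the 5 genes most alike in pattern. Coordinates are 1-based, on mm10, from GENCODE M21, and promoters are from RefSeq.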

Additional observations from a re-analysis of the deposited data

Results flagged for a closer look

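For 6 of the 10 genes the log2 difference (TAC minus MSC) of pair 3 differed from that of pairs 1 and 2 in limma's interaction test, with adjusted p-values of 0.000333 to 0.0116. It was more negative in pair 3 by -0.79 for Pecam1, -0.90 for Cdh5, -1.39 for Kdr, -1.54 for Flt1 and -1.69 for Emcn, and more positive by 1.12 for Tek. The test takes its error from the spread between libraries 1 and 2 of a group, and 57.2% of all genes passed it. Pair 3 is 1 library per group, and a share of mitochondrial ribosomal RNA below 0.3% and greater depth set both of its libraries apart. Their part in these differences was not tested.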

How the results depend on the processing

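The median log2 fold change of the 10 genes kept its direction in all 17 alternatives, and lay between -1.18 and -0.79 when any library was left out. The number of the 10 past the adjusted threshold, 0 in limma, was 2 with the replicate block, 5 with the library set as a term, 9 in replicates 1 and 2 only, and 0 to 2 without a single library (2, Vwf and Pecam1, without MSC replicate 3). It was 0 in the other alternatives. The number before adjustment, 6, was 3 with replicates 1 and 2 averaged and 5 to 7 without a single library. Kdr, at 0.0015, changed sign with replicates 1 and 2 averaged (-0.23) and when MSC1 (-0.052), MSC2 (-0.12), TAC1 (-0.19) or TAC2 (-0.10) was left out, and its leave-one-out range was -0.19 to 0.29. The count over all genes, 65, was 43 with a pseudocount of 0.5, 29 with no variance trend, 229 with the replicate block, 1814 with the set term, 6796 in replicates 1 and 2 only, 10 with replicates 1 and 2 averaged, and 0 to 292 without a single library (292 without MSC replicate 3 and 36 without TAC replicate 3). The block changed no other call among the 10 genes than those of Vwf and Cldn5. Beside these, Tek and Emcn were not tested with a filter at a mean of 10. The count of 6 genes differing between library sets was 4 to 7 in its 6 alternatives. The causes of these changes were not tested, apart from fewer libraries or another error estimate by construction.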
